A study of Homo sapiens with 2 samples.

Results

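The genes described here are ETV6, the 3 RUNX genes RUNX1, RUNX2 and RUNX3, and CBFB, taken as the 5 rows of 32738 in each count matrix whose gene symbol is one of these names. Both matrices come from Nalm-6, an established line of B-cell precursor acute lymphoblastic leukemia grown in suspension. The cells of one library carried a Tet-On construct for the ETV6-RUNX1 fusion, which the labels also give under its older name TEL-AML1, and those of the other a Tet-On construct for luciferase as the control. Both cultures received doxycycline at 500 ng/ml for 24 h, so the drug itself is common to them, and dead cells were removed with beads before droplet capture on the 10X platform. Neither the promoter's leakiness, nor whether each line is 1 clone, nor where the construct's transcript ends is given in the labels. There was 1 library per construct, so no difference between them was tested against replicates. Each value below carries a 95% interval for counting error alone, which says nothing of how much a second culture would vary.

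RUNX proteins are transcription factors that bind DNA through the Runt domain, and CBFB is the partner subunit that binds no DNA itself but strengthens that binding and protects RUNX proteins from degradation. RUNX1 is needed for blood stem cells to form and for B-cell precursors to mature, RUNX2 is best known from bone and RUNX3 from T cells and nerve cells. ETV6 is a repressor of the ETS family, and the fusion joins its dimerization part to nearly all of RUNX1, so that a Runt domain is carried by a protein with a repressor's partner surface.

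The promoters of the members were searched for the motif that RUNX proteins bind, and 2 stretches are printed here because each holds 2 copies and because they belong to the RUNX genes with next to no transcripts in these cells. In RefSeq promoters of GRCh38.p14, each holding 250 bases before and 50 after a start, a pair of ACCACA copies with any 2 bases between them was searched on both strands. ACCACA is the reverse complement of the RUNX motif TGTGGT, and this search overlaps that for single copies. The pair was found in 4 of 35116 promoters, or 0.0114%, and RUNX2 and RUNX3 account for 2 of the 4. Both are printed 5′ to 3′ on the gene's own strand, with the repeated motif in capitals:
RUNX3: cctcaACCACAgaACCACAaggcc
RUNX2: aaacaACCACAgaACCACAagtgc
The RUNX3 stretch is chr1:24965123-24965146 on the minus strand, and its pair begins 131 bases before the RefSeq start. The RUNX2 stretch is chr6:45328341-45328364 on the plus strand, and its pair begins 16 bases after the start. A single TGTGGT on either strand is common, at 13.1% of all promoters, and the related TGCGGT is at 7.29%. Only 1 orientation and spacing of the pair was searched, so its 0.0114% is not the share for any 2 RUNX motifs. At least 2 copies of either RUNX motif were held by 2.32% of all promoters. The RUNX2 promoter with the pair also held TGTGGT at -191 and -87 and TGCGGT at 32 (bases from the start). The second promoter listed for RUNX2 and that for RUNX3 held neither motif, nor did the promoter listed for ETV6. The RUNX1 promoter in the table held neither RUNX motif and 1 copy of the ETS motif CCGGAA, which occurs in 17.2% of all promoters. It lies at chr21:34888650-34888949, inside the annotated gene, and was the only RUNX1 promoter in the table. The upstream end of the gene, at 36004667, was therefore not searched. No promoter of CBFB was in the table. These are matches of letters in a window and were not measured as bound sites. Whether they bear on the levels of the members was not tested.

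After cells with fewer than 1000 genes or more than 10% mitochondrial UMIs were left out, 2267 ETV6-RUNX1 cells and 1870 control cells remained, with 43941536 and 42762188 UMIs. A UMI (unique molecular identifier) marks 1 captured transcript, and levels are UMIs per 1000000 UMIs of the library (CPM). The median was 19219 UMIs per cell with ETV6-RUNX1 and 22536 in the control. Markers of B-cell precursors were present at high levels, with all 9 matched markers measured, while the summed level of T and NK markers was 4.71 and 6.27 CPM, of erythroid and megakaryocyte markers 0.0910 and 0.281 CPM and of stem and progenitor markers 0.819 and 1.47 CPM. Myeloid markers summed to 13.2 and 12.1 CPM, mostly CST3. The libraries shared 16 cell barcodes, 7 of them among kept cells.

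RUNX1 was the RUNX gene of these cells. It had 1484 UMIs in the ETV6-RUNX1 library and 1452 in the control, levels of 33.8 CPM (32.1 to 35.5) and 34.0 CPM (32.2 to 35.7). The 2 levels lay within counting error, at a log2 ratio of -0.01 (-0.11 to 0.10), and 95.4% of the 5954 measured genes had ratios further from 0. Measured means at least 10 CPM in at least 1 library. RUNX2, the bone regulator, had 2 UMIs in each library, at 0.0455 CPM (0.00551 to 0.164) and 0.0468 CPM (0.00566 to 0.169). RUNX3 had 0 UMIs in either library, which allows up to 0.0683 and 0.0702 CPM (3 counts per library) and a share of up to 0.132% of 2267 cells and 0.160% of 1870 cells with a UMI, which is no limit on cells that express it. The exact 95% upper bounds are higher, at 0.0839 and 0.0863 CPM and at 0.163% and 0.197% of cells with a UMI. RUNX1 thus gave 99.9% of all RUNX UMIs in each library. A transcript is tagged once near its poly-A tail whatever its length, so these levels need no length correction, but capture can differ between genes.

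The RUNX loci bear on what was counted. RUNX1 (ENSG00000159216) lies on chromosome 21 on the minus strand, at 34787801 to 36004667 in the GENCODE annotation of GRCh38, whereas the counts were made on hg19. One other counted gene on its strand overlaps it, and that noncoding gene had 0 UMIs in both libraries. RUNX2 (ENSG00000124813, chromosome 6) overlaps SUPT3H on the opposite strand, which had 290 and 280 UMIs, and no source states whether the counting used strand. ETV6 (ENSG00000139083, chromosome 12) and CBFB (ENSG00000067955, chromosome 16) overlap no other annotated gene, and RUNX3 (ENSG00000020633) lies on chromosome 1.

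ETV6, the repressor, was the scarcest of the measured genes among the 5. It had 446 UMIs with ETV6-RUNX1 and 297 in the control, 10.1 CPM (9.23 to 11.1) against 6.95 CPM (6.18 to 7.78). The intervals of the levels did not overlap, and the log2 ratio was 0.55 (0.33 to 0.76), a 1.46-fold higher level. ETV6 passed the floor of 10 CPM through the ETV6-RUNX1 library alone, so it could enter the set of measured genes only on the higher side. Of the 3 members that were measured, 0 reached 1.5-fold in either direction, against 0.84% of measured genes (0.185% higher and 0.655% lower). ETV6 was at the edge of that size: it reached 0.59 on the log2 scale under each of the 3 other scalings (TMM, median of ratios, and totals without ribosomal protein and mitochondrial genes). In all, 1.04% of measured genes had ratios further from 0. Part of ETV6 is in the construct, and whether its transcript can add UMIs to ETV6 or RUNX1 was not tested.

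CBFB, the partner subunit, went the other way. It had 1350 UMIs with ETV6-RUNX1 and 1778 in the control, 30.7 CPM (29.1 to 32.4) against 41.6 CPM (39.7 to 43.6). The intervals were well apart, and the log2 ratio was -0.44 (-0.54 to -0.33), a level 0.739 times that of the control. Intervals excluding 0, which cover counting error alone, were common among all measured genes, at 44.9%, for reasons that were not tested. Only 2.17% of measured genes had ratios further from 0 than CBFB. Since RUNX1 was level, the number of CBFB UMIs per RUNX UMI was 0.908 with ETV6-RUNX1 and 1.22 in the control.

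These ratios were also taken within 9 groups of cells of like phase and depth, a division chosen after the data were seen, since the libraries differed in depth. CBFB was lower with ETV6-RUNX1 in 8 of 9 groups, with intervals below 0 in 7. Its ratios ran from -0.86 to 0.15. ETV6 was higher in 6 of 9 groups, with intervals above 0 in 4, and ran from -0.73 to 1.27. RUNX1 lay below 0 in 5 and above 0 in 4. Matched for phase and depth in this way, the log2 ratios were 0.57 (0.35 to 0.79) for ETV6, -0.02 (-0.12 to 0.09) for RUNX1 and -0.42 (-0.53 to -0.32) for CBFB.

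Single cells held few of these transcripts. An ETV6 UMI was found in 379 of 2267 ETV6-RUNX1 cells, 16.7% (15.2 to 18.3), and in 261 of 1870 control cells, 13.96% (12.4 to 15.6), where intervals are exact binomial. The most in 1 cell was 3 and 2 UMIs. RUNX1 was seen in 42.5% (40.4 to 44.5) and 48.0% (45.7 to 50.3) of cells, with up to 8 UMIs in each library. The lower share with ETV6-RUNX1 stands beside an equal level and a lower depth per cell. CBFB was seen in 41.4% (39.3 to 43.4) and 57.1% (54.8 to 59.4) of cells, with up to 6 and 7 UMIs. No cell type that lacks these genes was present, so the share that free RNA gives could not be set beside them.

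RUNX1 was more unevenly spread over cells than random draws at each cell's depth would be. If each cell drew UMIs at random in proportion to its total, 46.1% of ETV6-RUNX1 cells and 52.0% of control cells would have held a RUNX1 UMI, both above the observed shares. The variance of RUNX1 UMIs over cells was 1.48 and 1.43 times the mean, against 1.12 and 1.11 for such random draws. CBFB was closer to them, at 1.22 and 1.27 against 1.11 and 1.14. For ETV6 the ratios were 1.15 and 1.08 against 1.04 and 1.02, and cells with at least 2 ETV6 UMIs numbered 57 and 36, where random draws give 43.6 and 23.7. For RUNX1 such cells numbered 329 and 352 against 332.0 and 349.7, and for CBFB 306 and 454 against 287.7 and 462.8. By the variance ratio all 3 genes lay above the random draws in both libraries, RUNX1 by the most. By the number of cells with at least 2 UMIs only ETV6 did in both. Intervals of levels and ratios, which assume random draws, are thus too narrow for these genes, most of all for RUNX1. At 4 or more UMIs RUNX1 and CBFB had more cells than random draws give in both libraries. Such cells numbered 38 and 46 for RUNX1 against 18.3 and 23.9 in random draws. For CBFB they numbered 21 and 65 against 13.5 and 44.3. For ETV6 there were 0 in each library against 0.27 and 0.087, too few expected for a comparison.

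**Figure D1:**
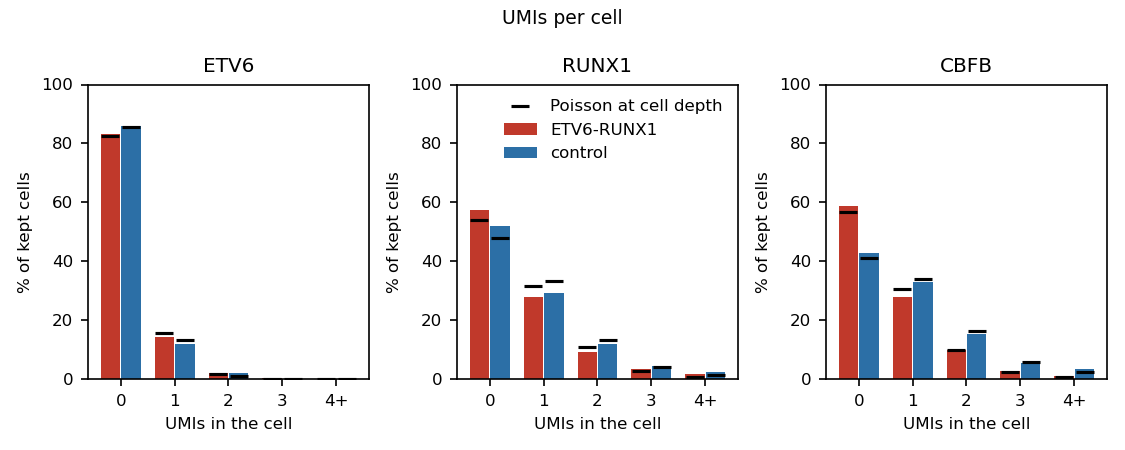
Bars give the percentage of kept cells with 0, 1, 2, 3 or at least 4 UMIs of ETV6, RUNX1 and CBFB in the ETV6-RUNX1 library (red, 2267 cells) and the control library (blue, 1870 cells); black dashes give what random draws in proportion to each cell's total UMIs would leave. For RUNX1 the bars at 0 stand above the dashes and those at 1 below them in both libraries.

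Cells with a UMI of 1 member held the others about as often as other cells did. Among cells of at least 8700 UMIs, 186 ETV6-RUNX1 cells held both an ETV6 and a RUNX1 UMI, where 174.7 are expected if the genes are independent within groups of like phase and depth, and 133 control cells did, against 134.1. RUNX1 and CBFB were seen together in 437 cells (419.7 expected) and 554 cells (544.5 expected). ETV6 and CBFB were seen together in 186 (176.6 expected) and 164 cells (162.5 expected). The counts were 0.991 to 1.06 times their expectations.

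Cell-cycle phase was called from 40 S-phase and 53 G2/M genes, none of them a member, in cells thinned to 8700 UMIs. The calls are a range rather than types, since 44.4% of ETV6-RUNX1 cells and 46.4% of control cells lay within 0.05 of a score cut. CBFB was lowest in cells called G1 and highest in G2/M in both libraries. With ETV6-RUNX1 its levels in G1, S and G2/M were 20.2 (16.7 to 24.3), 26.3 (23.5 to 29.3) and 35.1 CPM (32.8 to 37.5). In the control they were 25.2 (20.5 to 30.6), 38.4 (35.2 to 41.8) and 46.2 CPM (43.5 to 48.9). The log2 ratio of G2/M over G1 was 0.79 (0.51 to 1.09) and 0.88 (0.58 to 1.18). Both exceed 1.5-fold, which 8.2% of measured genes did with ETV6-RUNX1 and 7.71% in the control, and the median gene was at 0.10 and 0.11. Cells called G2/M were deeper, with medians of 21758 and 25423 UMIs against 16387 and 17672 in G1. In thinned cells the share with a CBFB UMI still was 14.1% in G1 and 26.0% in G2/M of the ETV6-RUNX1 library, and in control cells 15.0% and 33.7% (unthinned, 28.1% and 51.8%, then 35.98% and 67.0%).

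RUNX1 showed no such climb. With ETV6-RUNX1 its levels in G1, S and G2/M were 31.7, 35.5 and 33.0 CPM, with overlapping intervals and a log2 ratio of G2/M over G1 of 0.06 (-0.18 to 0.30). In the control they were 36.9, 39.4 and 30.3 CPM, and the ratio was -0.28 (-0.54 to -0.02). That interval reached past 0 with phases called on unthinned counts (-0.22, -0.52 to 0.09) and without cells near a score cut (-0.28, -0.63 to 0.09). The CBFB-to-RUNX1 balance therefore depended on phase: in cells called G1 RUNX1 had the higher level of both genes in each library, and in cells called G2/M CBFB had it in the control, while with ETV6-RUNX1 the intervals overlapped. The ratio of the libraries for CBFB was -0.31 (-0.71 to 0.09) in G1, -0.55 (-0.75 to -0.35) in S and -0.39 (-0.52 to -0.26) in G2/M.

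ETV6 was higher with ETV6-RUNX1 in cells called S and G2/M. With ETV6-RUNX1 its levels in G1, S and G2/M were 6.09 (4.22 to 8.51), 10.8 (9.01 to 12.7) and 10.6 CPM (9.35 to 12.0). In the control they were 7.97 (5.45 to 11.2), 6.41 (5.14 to 7.88) and 7.06 CPM (6.05 to 8.20). The log2 ratio of the libraries was -0.39 (-1.13 to 0.36) in G1, 0.75 (0.35 to 1.15) in S and 0.59 (0.30 to 0.87) in G2/M. The G1 values rest on 34 and 32 UMIs and their interval spans 0, and whether the ratio differs between phases was not tested. The ratio of G2/M over G1 in the ETV6-RUNX1 library was 0.80 (0.28 to 1.36). In control cells it was -0.17 (-0.72 to 0.42), where phases called on unthinned counts turned it to 0.40, with an interval that still spans 0. In thinned cells 4.89% of G1 and 8.60% of G2/M cells held an ETV6 UMI with ETV6-RUNX1, and 8.41% and 6.55% in the control (unthinned, 9.17% and 20.6%, then 14.02% and 16.3%).

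**Figure D2:**
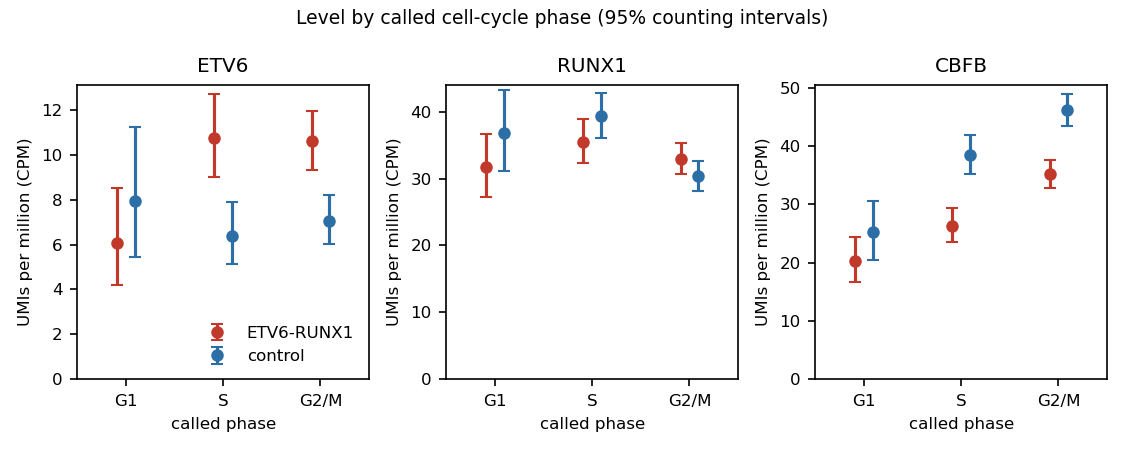
Levels of ETV6, RUNX1 and CBFB in CPM (vertical axes start at 0) by called phase, in the ETV6-RUNX1 library (red) and the control library (blue), with 95% counting intervals. CBFB climbs from G1 to G2/M in both libraries, with the control above in each phase, and ETV6 is apart between the libraries in S and G2/M but not in G1.

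The next comparison was among cells of 1 library: which genes differ between cells with and without an ETV6 UMI. With ETV6-RUNX1, 361 cells had one and 1682 had none, and in the control 258 and 1528. For each gene, the UMIs in cells with ETV6 were set against those expected from cells without it in the same phase and depth tertile. In neither direction did any gene reach 1.5-fold in both libraries. Intervals lay above 0 in both libraries for 44 of 5953 genes (0.739%) and below 0 in both for 26 (0.437%), while 14 (0.235%) lay on opposite sides. In a single library 8.48% and 9.64% of genes had intervals excluding 0.

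The 8 genes named as higher in ETV6-positive cells of both libraries have varied roles. NRIP1, a corepressor of nuclear receptors, had 269 UMIs against 223.0 expected with ETV6-RUNX1 (log2 0.27, 0.07 to 0.47) and 191 against 125.5 in the control (0.61, 0.37 to 0.84). MYB, a regulator of blood progenitors, was at 0.26 (0.12 to 0.40) and 0.33 (0.17 to 0.48). EGFL7, a secreted protein best known from blood vessels, was at 0.28 and 0.40. RCCD1, part of a histone demethylase complex, was at 0.27 and 0.42, and the tubulin gene TUBE1 at 0.35 and 0.30. ILVBL (0.35 and 0.35), the zinc finger gene ZNF90 (0.35 and 0.25) and TTN (0.27 and 0.27), the giant muscle protein gene, complete the 8 with the largest smaller ratio.

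Of the genes lower in ETV6-positive cells of both libraries, 8 are named. SMOC2, a matrix protein, was lowest, with 77 UMIs against 113.5 expected (-0.56, -0.93 to -0.21) and 54 against 73.3 (-0.44, -0.88 to -0.03). The zinc finger gene CXXC5 was at -0.40 and -0.25 and PLD4, of the phospholipase D family, at -0.31 and -0.24. The chaperones SDF2L1 and CANX were at -0.15 and -0.31 and at -0.15 and -0.20, and UBA2, which activates SUMO, at -0.20 and -0.17. BCL7A (-0.19 and -0.23), of the SWI/SNF complexes, and MORF4L2 (-0.19 and -0.15) were the others. All 16 named genes lay within 1.5-fold except NRIP1 in the control.

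In 1 library alone a few genes were past 1.5-fold, and these were named after their values were seen. With ETV6-RUNX1 the 1 such gene was ECD (0.62, 0.31 to 0.92), or 0.0168% of genes. In the control, CD69, an early activation antigen (0.65, 0.32 to 0.97), and NRIP1 were past it on the higher side (0.0336%). On the lower side (0.084%) were NKAIN4, FCRLA (-0.77, -1.24 to -0.32), an Fc receptor-like protein of B cells, PTCRA (-0.64), RCAN1 (-0.64) and WDR90 (-0.64). NKAIN4, a partner of the sodium pump, stood furthest from 0: control cells with an ETV6 UMI held 81 UMIs where 152.8 were expected (-0.92, -1.26 to -0.58), while with ETV6-RUNX1 the ratio was 0.17 (-0.01 to 0.36). In the control it was lower in cells with 1 ETV6 UMI (-0.89) and in the 35 cells with at least 2 (-1.06). NKAIN4 itself was unevenly spread, with a variance 1.95 times the mean in each library. The intervals assume random draws and are too narrow for such genes. For NRIP1 this ratio was 1.54 and 1.53 and for RUNX1 1.48 and 1.43, so their intervals are also too narrow. The same holds for genes given below, where this ratio was 4.37 and 3.90 for GNG11, 2.29 and 2.08 for LAT2, 2.02 and 2.19 for TFDP1 and 1.41 and 1.67 for IKZF2. The ratio was not taken for IGLL1, VPREB1 or PTPRCAP, also given below. After thinning, 10.2% of ETV6-RUNX1 cells and 1.06% of control cells held no IGLL1 UMI. At its levels of 1126 and 1861 CPM random draws would leave almost no such cells, so the IGLL1 intervals are too narrow as well.

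**Figure D3:**
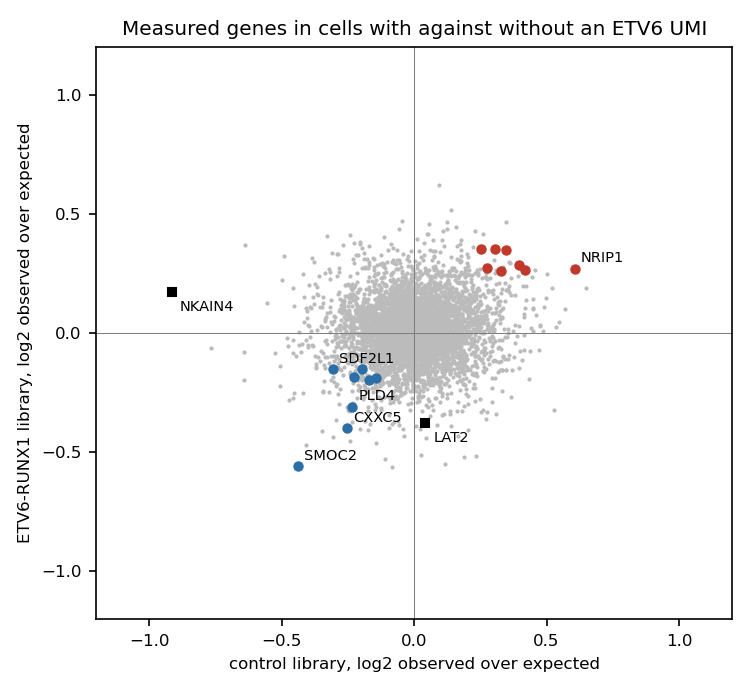
Each dot is 1 of 5953 measured genes; axes give the log2 of observed over expected UMIs in cells with an ETV6 UMI, in the control library (horizontal) and the ETV6-RUNX1 library (vertical). The 8 named genes higher in both libraries are red, the 8 lower in both blue, and NKAIN4 (control -0.92) and LAT2 are black squares.

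The genes that separate the libraries showed no common direction in ETV6-positive cells. Of 12 genes lower with ETV6-RUNX1 in an earlier analysis of these libraries, 6 lay below and 6 above 0 in ETV6-positive cells of that library, with a median of -0.02 against 0.01 over all measured genes, 3.43% of which had intervals below 0. LAT2, an adaptor of antigen receptor signalling, was the 1 of the 12 with an interval below 0 (-0.38, -0.67 to -0.10), and in the control it was at 0.04 (-0.12 to 0.20). Of 10 genes higher with ETV6-RUNX1, 5 lay on each side, with 0 intervals excluding 0. In the control, KIAA0226L was at 0.57 (0.21 to 0.92) and GNG11, a G-protein subunit, at 0.34 (0.17 to 0.51) in ETV6-positive cells, against 0.10 and 0.02 with ETV6-RUNX1. In that library KIAA0226L was at -0.13 (-0.44 to 0.18) in the 305 cells with 1 ETV6 UMI. In the 56 cells with at least 2 it was at 0.91 (0.41 to 1.37), while BCAS4, of the same list, was at -0.66 (-1.28 to -0.10). Neither RUNX1 (0.07, -0.11 to 0.26, and 0.08, -0.12 to 0.29) nor CBFB (0.17, -0.02 to 0.36, and -0.06, -0.25 to 0.12) had an interval excluding 0. ETV6 averaged 0.197 and 0.159 UMIs per cell, so 0 UMIs in a cell does not show that it lacks the transcript.

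The same split by RUNX1 rests on more cells, 912 against 1131 with ETV6-RUNX1 and 882 against 904 in the control, and was made after the ETV6 result was known. Intervals lay above 0 in both libraries for 109 genes (1.83%), below 0 in both for 99 (1.66%) and on opposite sides for 29 (0.487%). IKZF2, which encodes the Ikaros-family factor Helios, led: RUNX1-positive cells held 237 UMIs against 146.1 expected with ETV6-RUNX1 (0.70, 0.40 to 1.00) and 332 against 180.0 in the control (0.88, 0.60 to 1.17). It was the 1 gene past 1.5-fold in both libraries. BCL2, the survival factor, was at 0.39 (0.10 to 0.68) and 0.65 (0.38 to 0.93), and CD38, a surface enzyme of B-cell precursors, at 0.40 and 0.43. TTN (0.51 and 0.55) and LRMP (0.46 and 0.42), a membrane protein of lymphoid cells, were the others of the 5 highest. In the control ZNRF1 (0.79) and the noncoding RP11-301G19.1 (0.64) were also past 1.5-fold, as was BCL2, which makes 4 genes (0.0672%) there. The 5 furthest below 0 in both were CCDC127 (-0.33 and -0.33), C10orf10 (-0.36 and -0.32), DTWD1 (-0.32 and -0.33), HMGCS1 (-0.33 and -0.31), of cholesterol synthesis, and SMOC2 (-0.30 and -0.32).

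Among the 12 genes lower with ETV6-RUNX1, RUNX1-positive cells of that library held more of 9, with 6 intervals above 0 and 1 below 0. In the control 5 were above 0, with 1 interval above 0, and 7 below, with 4 intervals below 0. LAT2 was at 0.55 (0.33 to 0.78) in the ETV6-RUNX1 library and 0.11 (-0.00 to 0.23) in the control, and the GTPase RASD1 at 0.57 (0.26 to 0.88) and 0.17 (-0.04 to 0.39). VPREB1, of the surrogate light chain, was at 0.23 (0.19 to 0.26) and 0.16 (0.14 to 0.19), and its partner IGLL1 at 0.08 (0.05 to 0.10) and -0.03 (-0.05 to -0.01). Both are among the 6 genes with an interval above 0 in the ETV6-RUNX1 library. The IGLL1 intervals are too narrow for its uneven spread, and the spread of VPREB1 over cells was not measured. TFDP1, the dimer partner of E2F factors, went the other way, at -0.68 (-0.97 to -0.38) and -0.27 (-0.47 to -0.08). Of the 10 genes higher with ETV6-RUNX1, 8 lay below 0 and 2 above in that library, with 2 intervals below 0 and 1 above. In the control 4 lay below and 6 above, with 0 intervals below 0 and 1 above. For intervals above 0 the shares over all measured genes were 7.06% and 6.47%. No such share is given for intervals below 0, so those counts have no background beside them.

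CBFB-positive cells, 888 against 1155 with ETV6-RUNX1 and 1051 against 735 in the control, were compared in the same way. Intervals lay above 0 in both libraries for 89 genes (1.5%) and below 0 in both for 56 (0.941%). They lay on opposite sides for 55 (0.924%), about as many as below 0 in both. By the smaller ratio, ID2, an inhibitor of E proteins, came first, at 0.39 (0.11 to 0.67) and 0.35 (0.09 to 0.62). DLGAP5, a spindle protein, was at 0.35 and 0.36, and PREX1 at 0.39 and 0.34. The mitotic kinase PLK1 was at 0.46 (0.30 to 0.61) and 0.33 (0.16 to 0.50), and NUF2, of the kinetochore, at 0.40 and 0.32. Phase groups are broad, so position within G2/M may still differ between these cells, which was not tested. The 5 furthest below 0 were RNGTT (-0.32 and -0.31), HDHD2 (-0.34 and -0.30), GINS1 (-0.30 and -0.28), of DNA replication, PHF3 (-0.22 and -0.19) and GBAS (-0.18 and -0.26). For GBAS the interval with ETV6-RUNX1 nearly reached 0 (-0.36 to -0.0008).

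The genes that separate the libraries were also looked at in CBFB-positive cells. With ETV6-RUNX1, 11 of the 12 genes lower in that library were above expectation in its CBFB-positive cells, with 7 intervals above 0 and a median of 0.21 against 0.03 over all measured genes, 12% of which had intervals above 0. In the control 8 of the 12 were below 0, with 0 intervals above 0 (8.32% of all measured genes had one) and a median of -0.02 against 0.01. LAT2 was at 0.35 (0.12 to 0.58) against -0.01 (-0.13 to 0.11), PTPRCAP, which binds the CD45 phosphatase, at 0.36 (0.22 to 0.50) against -0.14 (-0.23 to -0.06), N4BP3 at 0.38 (0.15 to 0.62) against -0.12 (-0.30 to 0.06) and IGLL1 at 0.17 (0.14 to 0.19) against 0.02 (-0.00 to 0.04). The intervals of IGLL1 are too narrow, as its UMIs were spread unevenly, and the spread of PTPRCAP and VPREB1 was not measured. IGLL1, PTPRCAP and VPREB1 are among the 7 genes with intervals above 0 in the ETV6-RUNX1 library. Of the 10 genes higher with ETV6-RUNX1, 3 lay above 0 and 7 below in CBFB-positive cells of that library. In the control 6 lay above and 4 below. Over all genes the 55 (0.924%) given above had intervals on opposite sides of 0 in the libraries. The 12 genes and CBFB were all lower in the ETV6-RUNX1 library, the list was drawn from these libraries, and the difference between libraries in these ratios was not tested. In 208 ETV6-RUNX1 cells with no IGLL1 UMI after thinning, set against other cells of like phase and depth tertile on unthinned counts, CBFB had 88 UMIs against 109.3 expected (-0.31, -0.64 to -0.0001), RUNX1 120 against 131.4 (-0.13, -0.41 to 0.14) and ETV6 34 against 35.8 (-0.08, -0.63 to 0.43). For CBFB this takes the pairing with IGLL1 given above from the other side, in the same cells, and is no separate result.

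**Figure D4:**
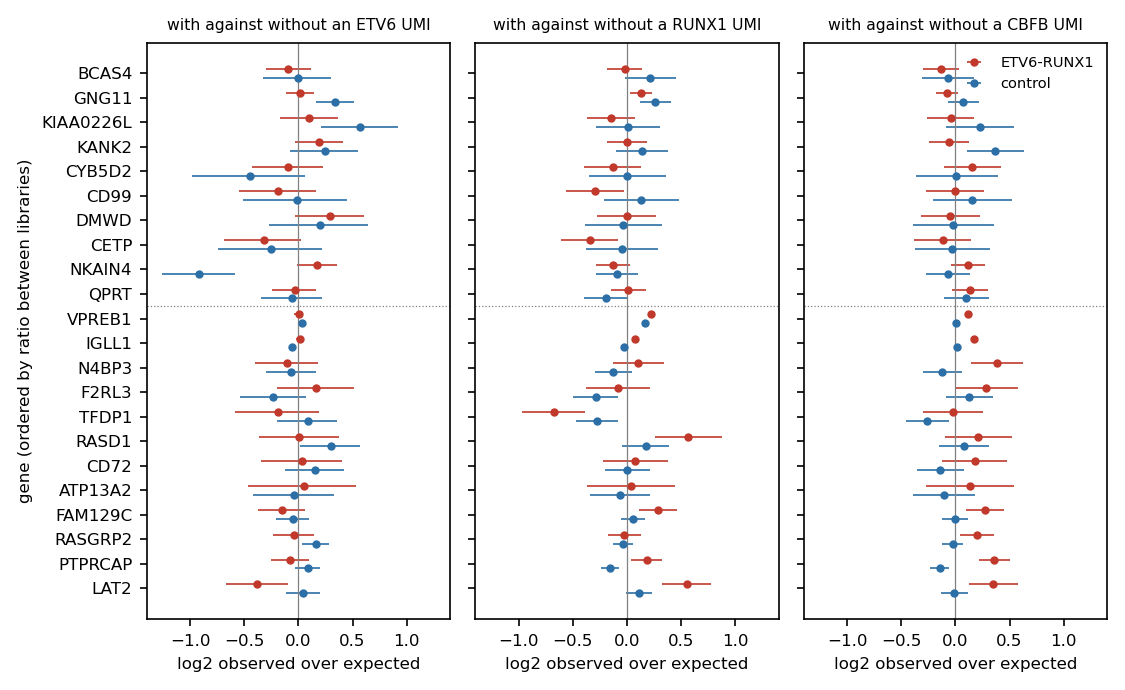
For the 10 genes higher (above the dotted line) and 12 lower (below it) with ETV6-RUNX1 in an earlier analysis, the log2 of observed over expected UMIs in cells with an ETV6, RUNX1 or CBFB UMI, by library, with 95% counting intervals. In CBFB-positive cells 11 of the 12 lower genes lie right of 0 with ETV6-RUNX1 (red) and 4 of 12 in the control (blue).

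Each member's course over the 6 values of library and phase was compared with all measured genes, as the root mean square distance between centred log2 levels. Nearest to ETV6 were NXN (0.13), SLC35E3 (0.14), RAPGEF1, KIAA0040 and WWC3 (each 0.15), where the median gene was at 0.31. The G1 levels of ETV6 rest on 34 and 32 UMIs (4.22 to 8.51 and 5.45 to 11.2 CPM), so which genes are nearest is uncertain. Nearest to RUNX1 were CSPP1 (0.04), KDSR (0.04), ALDH9A1, NHLRC3 and GLUD1 (each 0.05), with a median gene at 0.18. Nearest to CBFB were SPN (0.10), HYLS1 (0.11), PRKAG1, TUBB2A (each 0.12) and LAIR1 (0.13), with a median gene at 0.37. PRKAG1, a subunit of AMP-activated kinase, was also the 1 gene past 1.5-fold in CBFB-positive cells with ETV6-RUNX1 (0.61, 0.30 to 0.92). RUNX2 and RUNX3 had too few UMIs for such a course.

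Of 35 cofactors of RUNX and CBFB, 27 were measured, and the median log2 ratio was -0.01 against -0.04 over all measured genes. Of the 27, 0 reached 1.5-fold, which 0.84% of all measured genes did, so 0 in lists this short says little. The acetyltransferase EP300 (0.34, 0.16 to 0.53), the methyltransferase KMT2A (0.29, 0.19 to 0.39) and the corepressor NCOR1 (0.27, 0.18 to 0.35), which the ETV6 part of the fusion can bind, were furthest from 0. Of 26 other ETS factors 9 were measured, with 0 past 1.5-fold and a median of 0.02. ETV5 was at 0.35 (0.18 to 0.51), SPI1, which encodes PU.1, at -0.34 (-0.46 to -0.22) and ETS2 at -0.14 (-0.28 to -0.00).

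Known RUNX1 target genes went both ways. Of 47 found in the matrices 21 were measured, and 11 of these lay above and 10 below 0, with a median of 0.03. The 1 past 1.5-fold, which 0.84% of all measured genes were, was IGLL1, at 1126 against 1861 CPM (-0.73, -0.74 to -0.71), followed by VPREB1 at 718 against 1058 CPM (-0.56, -0.58 to -0.54), both of the surrogate light chain, and by ETV6 itself. Of 31 B-lineage factors and genes that act with RUNX1, 27 were measured, 0 were past 1.5-fold and the median was 0.10. ID3, an inhibitor of E proteins, was at -0.54 (-0.58 to -0.49), the recombinase gene RAG1 at 0.53 (0.39 to 0.66) and IRF4 at 0.48 (0.35 to 0.62). Of 18 genes known to fuse with ETV6, 3 were measured: PAX5 (0.17, 0.11 to 0.24), SYK (0.11, 0.03 to 0.19) and CHIC2 (0.03, -0.14 to 0.20).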

How the data were processed

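Expression was measured by droplet single-cell RNA sequencing in 2 libraries, 1 per construct. Per the submitters' processing notes, Cell Ranger 3.0.2 and the hg19 build were used, and the deposited values are raw UMI counts per gene and cell, to which the authors' files apply no scaling. UMIs were summed over kept cells and divided by library totals (CPM). Log2 ratios carry exact conditional binomial intervals (95%), shares exact Clopper-Pearson intervals, both for counting error only. Phases were called with scanpy 1.11.5 on counts thinned to 8700 UMIs per cell (224 and 84 shallower cells left out). Scrublet marked 10 and 18 doublets, which were kept. Expected UMIs in cells with a member's UMI came from cells without it in 9 groups (3 phases by 3 depths). TMM used edgeR 4.0.16 and median of ratios DESeq2 1.42.0. The interval and expectation steps were tested on simulated data. Of 205 listed symbols, 6 were not matched. Members, lists and rules were chosen with earlier results of these data known. Genes were named as up to 3 per list furthest from 0, up to 8 per direction for ETV6-positive cells by the smaller of the ratios of both libraries, and 5 nearest in course. Splits by RUNX1 and CBFB (5 named per direction), single-library genes and phase-and-depth matching were added after the data were seen.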

Additional observations from a re-analysis of the deposited data

How the results depend on the processing

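With 1 library per construct no value here is checked by a replicate, and no paired analysis was possible because each group has 1 sample. ETV6 kept a log2 ratio above 0 and CBFB one below 0 under the other scalings, cell filters, thinning, doublet removal and matching, with the exception of ETV6 in cells called G1 only (-0.39). In G1 only, RUNX1 was at -0.22 and CBFB at -0.31, in S only at -0.15 and -0.55, and RUNX1 in G2/M only at 0.12. Without cells near a score cut, the G2/M over G1 ratio of CBFB in the control was 1.24. The numbers of genes at least 1.5-fold higher and lower in ETV6-positive cells of both libraries, 0 and 0, were 3 and 17 in thinned cells, 7 and 17 with at least 2 ETV6 UMIs, 32 and 41 at a floor of 1 CPM, 3 and 3 at a smaller fold size, and without groups of phase and depth 1 gene was lower. Genes at least 1.5-fold higher between libraries, 11, were 17 under each of the 3 other scalings, 139 at a floor of 1 CPM and 1 at 50 CPM, and those lower, 39, were 232 and 10 at these floors. Floors, sizes and thinning change counts by construction, and for the rest the cause was not tested. Ratios of RUNX3, and most of RUNX2 by phase, could not be computed from 0 to 2 UMIs.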
